A study of Mus musculus with 8 samples.

Results

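SUMO proteins and the enzymes that attach them to other proteins were examined at the transcript level in T cells with and without the SUMO acceptor site of ROR-γt, the transcription factor that drives the Th17 program. The 8 genes were Sumo2 and Sumo3, which encode SUMO proteins, Sae1 and Uba2, which encode the subunits of the SUMO-activating enzyme, and the ligase genes Pias1, Pias2, Pias3 and Pias4. They were chosen by symbol and not by any measured value, and all 8 were found among the 22829 genes listed. RNA seq was carried out on Th17 cells grown from CD4+ T cells of ROR-γt-/- mice. A lentivirus had given ROR-γt back to these cells, as WT-ROR-γt in 4 samples (called WT) and as K187R-ROR-γt in the other 4 (called K187R). K187R-ROR-γt carries an arginine in place of the lysine to which SUMO is joined, and all samples share the loss of endogenous ROR-γt. The age of the animals, the number of animals behind each sample and the share of cells that took up the virus are not given in the sources used here. Nothing says that the 4 samples of a group came from separate animals or cultures. The p-values therefore set the difference between groups against the spread between these samples, which may be technical. With no sample of cells lacking both forms of ROR-γt among those analysed, the comparison is between the mutant and the WT protein only.

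SUMO is a small protein related to ubiquitin that is joined through its end to lysines of other proteins. A protease first trims the SUMO precursor, the Sae1 and Uba2 heterodimer (the E1) activates it with ATP, an E2 enzyme carries it, and E3 ligases, among them the PIAS proteins, help to place it on a target. SENP proteases take it off again. In T cells these steps act on transcription factors, and the PIAS proteins were first described as inhibitors of STAT factors, which carry cytokine signals to the nucleus. Transcript levels say how much mRNA of these genes was present, not how much SUMO was joined to any protein.

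In these data the mRNA of the SUMO pathway differed little between cells expressing WT-ROR-γt and cells expressing K187R-ROR-γt. By limma on log2(normalized count + 1) with Benjamini-Hochberg adjustment over 16982 genes, 0 of the 8 genes had an adjusted p-value under 0.05, and the same was true of 0.0% of all tested genes. Without adjustment, 0 of the 8 were below 0.05 in the same fit, against 746 or 4.39% of the 16982. edgeR called 0 of the 8, against 0.0% of all genes, and DESeq2 called 0 of the 8, against 0.193% of the 13970 genes it gave an adjusted p. The WT and K187R samples overlapped for all 8 genes, while they did not overlap for 2.46% of all tested genes (1.47% with K187R higher and 0.989% with K187R lower). The mean was lower with K187R for 6 genes and higher for Sumo3 and, by far less than its error, for Pias1. Of all tested genes, 8758 were lower with K187R and 8224 higher.

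How large a difference these samples leave possible is given by the intervals. Over the 8 genes the 95% intervals of the fold (K187R over WT) lay between 0.742 and 1.22. The median absolute difference was 0.094 on the log2 scale, beside 0.115 over all tested genes. The median residual SD, a measure of the spread between samples of a group, was 0.155 on the log2 scale for the 8 genes and 0.220 for all. The genes were covered by at least 1043 reads in every sample (Pias3) and by up to 13557 (Uba2), so that the counting error at the fewest reads was 1.07 to 3.10% of the value while the samples varied by 2.95 to 15.8%. The intervals cover counting and sample spread, not the capture bias of a library.

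**Figure D1:**
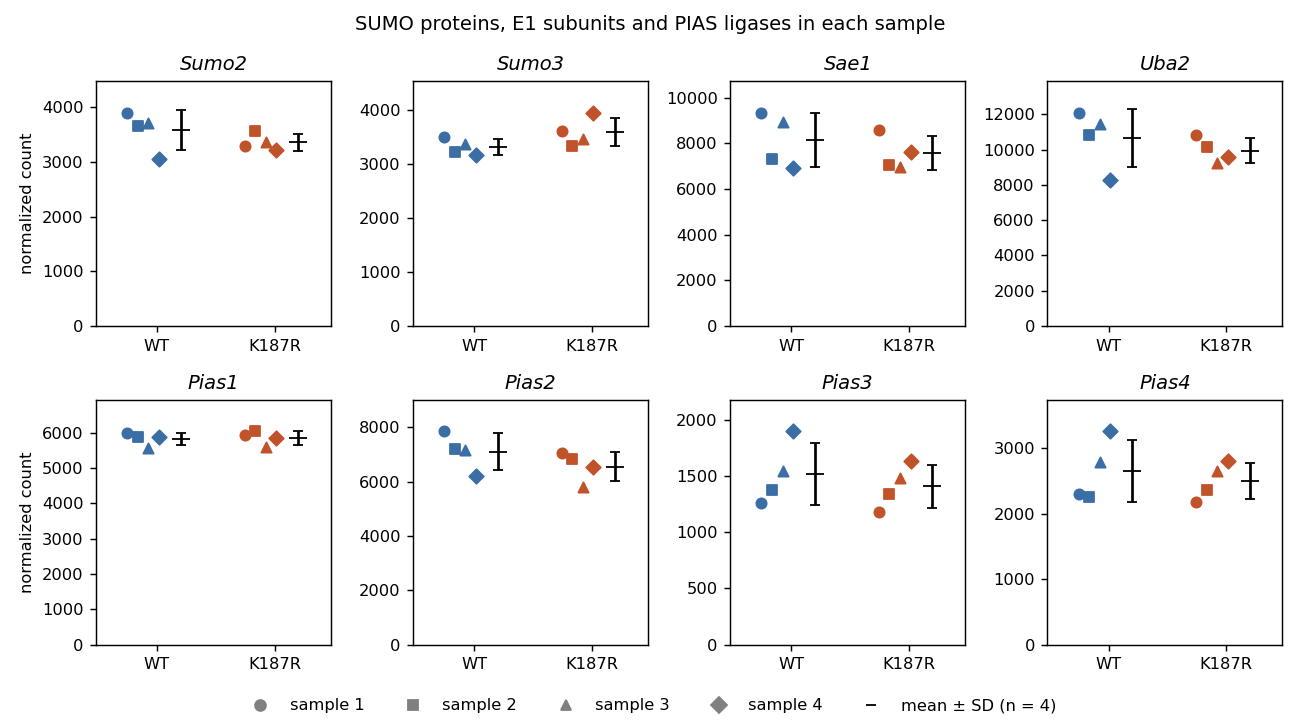
Normalized counts (vertical axes, each starting at 0) of the 8 genes in each of the 4 WT (blue) and 4 K187R (orange) samples, with the marker shape giving the sample number and the black bar the mean ± SD of 4 samples. The groups overlap in all 8 panels, Pias1 stays between 5574 and 6033, and Pias3 and Pias4 are highest in WT sample 4.

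The SUMO proteins Sumo2 and Sumo3 are close relatives, and a read of either has to be told from the other and from copies elsewhere in the genome. Their longest coding sequences with a consensus (CCDS) annotation, 285 and 339 bases long, were 82.3% identical over 282 aligned bases, with no identical run longer than 17 bases. A read of 75 bases that lies whole in the coding sequence of one therefore differs from the other. The pair that is most alike over 75 bases is shown to make this visible. Capitals mark the bases that differ, 9 of 75, and each stretch crosses 1 exon junction (GRCm38 with GENCODE M21, written in the direction of the gene).
Sumo2, coding bases 136 to 210, chr11:115530361-115534569, minus strand: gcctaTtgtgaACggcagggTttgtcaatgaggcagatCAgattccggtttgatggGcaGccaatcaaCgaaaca
Sumo3, coding bases 142 to 216, chr10:77609923-77614036, plus strand: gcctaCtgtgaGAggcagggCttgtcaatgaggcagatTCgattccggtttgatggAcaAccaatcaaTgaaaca

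Sumo2 shares stretches as long as a read with copies other than Sumo3. All of the 75-base words of its coding sequence (100%) also occur in annotated transcripts of other genes, among them the pseudogenes Smt3h2-ps and Smt3h2-ps4, and over all its transcripts 15.8% of the words are shared with 11 genes elsewhere. The stretch shown next stands in 1 exon of Sumo2 and occurs base for base in 5 other genes (Gm10241, Gm12755, Gm13430, Gm9836 and Smt3h2-ps4). Capitals mark the 14 of 75 bases at which the same stretch of Sumo3 differs. This stretch alone could not be assigned among the copies of Sumo2 but could be told from Sumo3. Reads were paired, and whether mates would place such reads was not examined.
Sumo2, coding bases 70 to 144, chr11:115534561-115534635, minus strand: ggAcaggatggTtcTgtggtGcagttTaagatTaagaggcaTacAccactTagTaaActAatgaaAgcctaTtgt
Sumo3, coding bases 76 to 150, chr10:77609857-77609931, plus strand: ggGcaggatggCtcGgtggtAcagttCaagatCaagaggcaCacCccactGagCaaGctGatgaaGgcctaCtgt
How reads matching several places were counted is not given in the sources used here, so the level of Sumo2 is uncertain. Of the 11 genes, 9 were listed, and together they held 173 to 356 normalized counts per sample, or 5.59 to 9.95% of the Sumo2 value. The largest was Gm10241, with 102 to 227. By the same search Sae1 and the 4 Pias genes shared 0% of their words with genes elsewhere and Uba2 shared 1.10%. Sumo3 also shared 0% elsewhere, but 9.45% of its exon bases overlap Gm49325 on the same strand, where a read taken alone cannot be told apart.

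Sumo2 (ENSMUSG00000020738, chr11:115523102-115536276, minus strand) encodes the SUMO protein used with Sumo3 for chains and in responses to stress. Its normalized counts were 3899, 3663, 3712 and 3052 in WT samples 1 to 4 and 3286, 3576, 3371 and 3213 in K187R samples 1 to 4. The K187R values all lay inside the WT range, whose lowest sample was WT sample 4. The means were 3581 ± 367 (SD, n = 4) and 3362 ± 157 (SD, n = 4). The log2 difference (K187R minus WT) was -0.09 with a standard error of 0.088, a fold of 0.942 with a 95% interval of 0.821 to 1.08 (limma adjusted p = 0.923). Without WT sample 4 the difference was -0.16, with an unadjusted p of 0.040 and an adjusted p of 0.378 in limma. In that fit 2184 of 16944 genes, or 12.9%, had an unadjusted p under 0.05.

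Sumo3 (ENSMUSG00000020265, chr10:77606097-77618331, plus strand) encodes a protein almost identical to that of Sumo2 once both are trimmed. Its normalized counts were 3499, 3226, 3382 and 3174 in WT samples 1 to 4 and 3618, 3347, 3468 and 3954 in K187R samples 1 to 4. The highest values were those of K187R samples 4 and 1, and K187R samples 2 and 3 lay among the WT samples. The means were 3320 ± 149 (SD, n = 4) and 3597 ± 263 (SD, n = 4), a log2 difference of 0.11 with a standard error of 0.075. The fold was 1.08 with a 95% interval of 0.963 to 1.22, and the difference did not pass (limma adjusted p = 0.921). Sumo3 had the lowest limma p-value of the 8 genes, and an exact two-sided permutation test of the 8 samples gave p = 0.143, where the smallest p that 4 against 4 allows is 0.0286. Leaving out both samples numbered 4, an alternative chosen after seeing the data, brought the difference to 0.046 on the log2 scale.

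Within a sample the balance of both SUMO genes does not depend on the size factor. Per kb of annotated exon, the ratio of Sumo3 to Sumo2 was 0.426, 0.418, 0.432 and 0.493 in WT samples 1 to 4. In K187R samples 1 to 4 it was 0.522, 0.444, 0.488 and 0.584. The means were 0.442 ± 0.035 and 0.509 ± 0.059 (SD, n = 4 each), and the groups overlapped through WT sample 4, whose ratio exceeded those of K187R samples 2 and 3. This ratio was not tested, and the absolute ratio depends on the length used for each gene. It also rests on the Sumo2 count, which is uncertain because of the stretches shared with other genes.

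Sae1 and Uba2 encode the E1. Sae1 (ENSMUSG00000052833, chr7:16320234-16387806, minus strand) is the subunit without the catalytic cysteine. Sae1 stood at 9329, 7306, 8951 and 6933 normalized counts in WT samples 1 to 4 and 8592, 7068, 6965 and 7602 in K187R samples 1 to 4. Both groups therefore held high and low samples, with WT samples 1 and 3 and K187R sample 1 at 8592 or more and the other 5 at 7602 or less. The means were 8130 ± 1187 and 7557 ± 745 (SD, n = 4 each), a log2 difference of -0.10 with a standard error of 0.114 (limma adjusted p = 0.926).

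Uba2 (ENSMUSG00000052997, chr7:34140688-34169599, minus strand) holds the cysteine that takes up SUMO. Uba2 stood at 12073, 10807, 11465 and 8295 normalized counts in WT samples 1 to 4 and 10812, 10141, 9217 and 9595 in K187R samples 1 to 4. The lowest value was again that of WT sample 4, and the K187R samples lay inside the WT range. The means were 10660 ± 1659 and 9941 ± 694 (SD, n = 4 each), a log2 difference of -0.09 with a standard error of 0.117 (limma adjusted p = 0.932). Without WT sample 4 the difference was -0.20 with an unadjusted p of 0.0256, which did not pass after adjustment (limma adjusted p = 0.354), in the same fit in which 12.9% of all genes were below 0.05 unadjusted.

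The proteins of both genes work as a pair, and the ratio of their mRNA was close in the groups. Per kb of exon the ratio of Uba2 to Sae1 was 0.565 ± 0.051 in WT and 0.568 ± 0.035 in K187R (SD, n = 4 each), with a range of 0.515 to 0.637 over the 8 samples. The distance between profiles over samples was measured as the root mean square difference of log2 values after each gene's mean over the 8 samples was subtracted. A smaller value means closer profiles. This distance is not scaled to how much a gene varies, so a steady gene can lie near another without sharing its pattern. Between Sae1 and Uba2 it was 0.095, which placed Uba2 at rank 381 of 16981 genes around Sae1 and Sae1 at rank 835 around Uba2. Between Sumo2 and Sumo3 it was 0.157, which placed Sumo3 at rank 4689 around Sumo2.

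The PIAS ligases spanned the steadiest and the most variable of the 8 genes. Pias1 (ENSMUSG00000032405, chr9:62878368-62987924, minus strand) encodes a ligase of the nucleus. Normalized counts of Pias1 were 5988, 5870.3, 5574 and 5866 in WT samples 1 to 4 and 5941, 6033, 5583 and 5840.3 in K187R samples 1 to 4. The highest sample exceeded the lowest by 1.08-fold, the smallest span of the 8 genes, with K187R sample 2 at the top and WT sample 3 at the bottom. The means were 5825 ± 176 and 5849 ± 194 (SD, n = 4 each), a log2 difference of 0.0060 with a standard error of 0.060 and a 95% interval of -0.13 to 0.14 (limma adjusted p = 0.993). With median centring in place of the deposited scaling the sign of this difference turned (-0.016).

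Pias2 (ENSMUSG00000025423, chr18:77065208-77153800, plus strand) encodes a ligase also known for its work with nuclear receptors. Its normalized counts were 7841, 7196, 7159 and 6203 in WT samples 1 to 4 and 7048, 6810.3, 5799 and 6516 in K187R samples 1 to 4. The groups overlapped, with WT sample 4 below 3 of the 4 K187R samples. The means were 7100 ± 675 and 6543 ± 542 (SD, n = 4 each), a log2 difference of -0.12 with a standard error of 0.092 (limma adjusted p = 0.921). This was the largest absolute difference among the 8 genes, and its 95% interval of the fold ran from 0.800 to 1.06.

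Pias3 (ENSMUSG00000028101, chr3:96696384-96706070, plus strand) encodes the family member described as an inhibitor of STAT3, the factor that IL-6 and IL-23 use in Th17 cells. Pias3 reached normalized counts of 1258, 1376, 1546 and 1899 in WT samples 1 to 4 and 1178, 1341, 1480.0 and 1636 in K187R samples 1 to 4. Both groups had their lowest value in sample 1 and their highest in sample 4, and the groups overlapped widely. The means were 1520 ± 279 and 1409 ± 195 (SD, n = 4 each), a log2 difference of -0.10 with a standard error of 0.146 (limma adjusted p = 0.935). The interval of the fold, 0.742 to 1.17, was the widest of the 8 genes on the log2 scale. Without WT sample 4 the sign turned, with a log2 difference of 0.010, while without both samples numbered 4 the difference was -0.07.

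Pias4 (ENSMUSG00000004934, chr10:81153266-81167923, minus strand) encodes the ligase also called PIASy. Normalized counts of Pias4 were 2303, 2257, 2786 and 3253 in WT samples 1 to 4 and 2184, 2356, 2648 and 2801 in K187R samples 1 to 4. Samples 3 and 4 of each group were above its samples 1 and 2, and the groups overlapped. The means were 2650 ± 468 and 2497 ± 279 (SD, n = 4 each), a log2 difference of -0.08 with a standard error of 0.133 (limma adjusted p = 0.949). Without WT sample 4 the sign of this difference turned too, to 0.028, while without both samples numbered 4 it was -0.03.

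**Figure D2:**
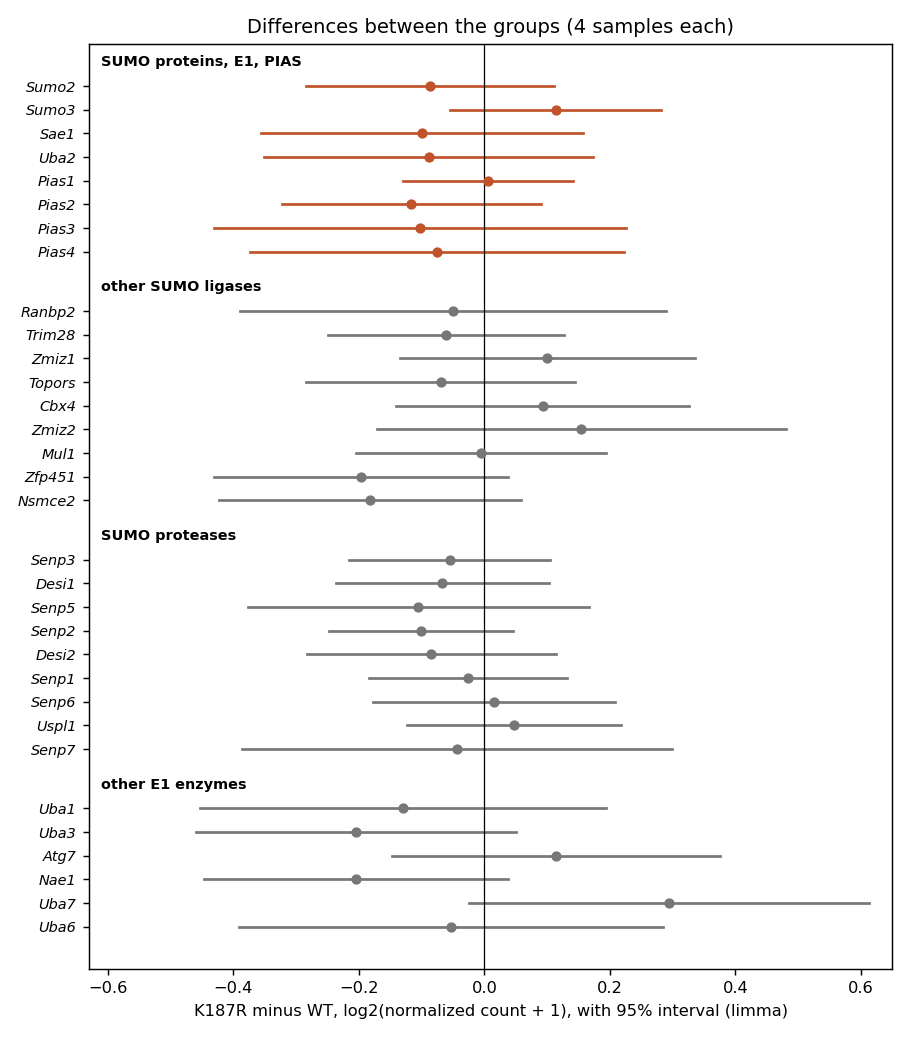
Log2 difference (K187R minus WT, horizontal axis) with its 95% interval from limma for the 8 genes (orange) and for 9 other SUMO ligases, 9 SUMO proteases and 6 E1 enzymes of other modifiers (grey), from 4 samples per group. Every interval drawn includes 0, and those of the 8 genes lie between -0.43 and 0.28.

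Pias3 and Pias4 had similar profiles over the 8 samples. Their root mean square difference was 0.054 on the log2 scale, which placed Pias4 at rank 2 of 16981 genes around Pias3, between Hid1 (0.047) and Pqlc2 (0.056). Around Pias4 the nearest genes were Rabep2 (0.028), Zfp513 (0.038) and Hid1 (0.044). These values describe 8 samples whose marker levels also differ between sets, as given below, and they come with no test.

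The mix of the family was also compared. Of the summed level of the 4 Pias genes per kb of exon, Pias1 made up 21.7 ± 0.77% in WT and 23.1 ± 0.57% in K187R (SD, n = 4 each). Pias2 made up 50.3 ± 4.67% and 49.1 ± 3.13%, Pias3 9.85 ± 1.79% and 9.68 ± 1.34%, and Pias4 18.2 ± 3.12% and 18.2 ± 2.14%. The groups overlapped for each share. In WT sample 4 Pias2 had its lowest share, 43.7%, and Pias3 and Pias4 their highest, 12.3% and 22.3%.

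**Figure D3:**
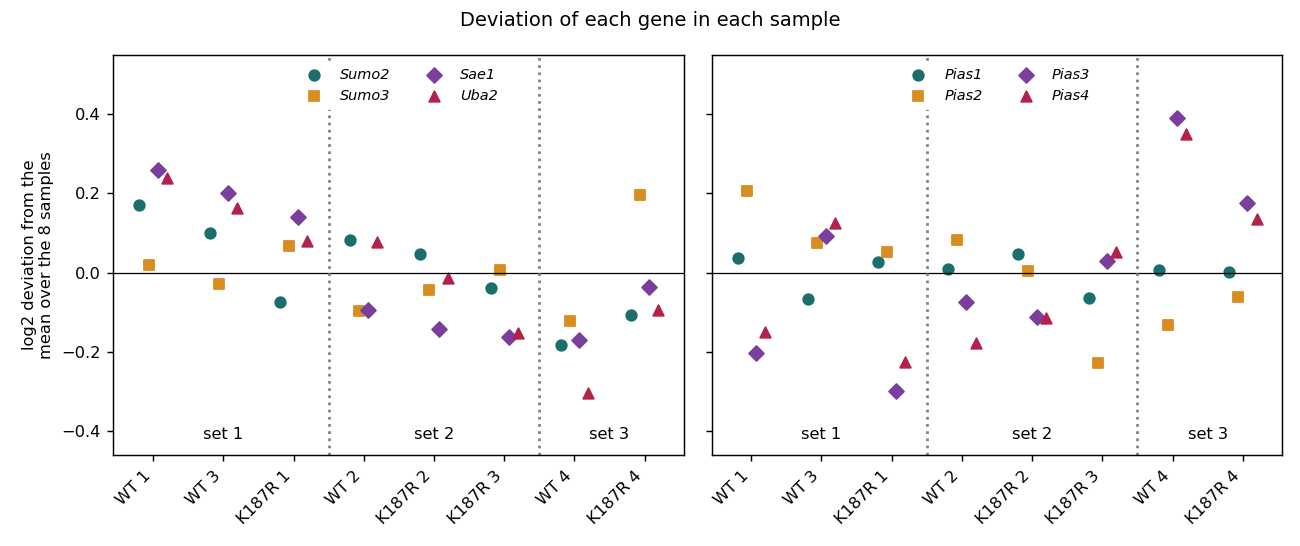
Log2 deviation of each gene from its mean over the 8 samples (vertical axis), for the SUMO proteins and E1 subunits (left) and the Pias genes (right). The samples are ordered by 3 sets, separated by dotted lines, from a clustering in which the number of sets was fixed at 3. WT sample 4 holds the lowest value of Sumo2 (-0.18), Sumo3 (-0.12), Sae1 (-0.17) and Uba2 (-0.30) and the highest of Pias3 (0.39) and Pias4 (0.35).

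Clustering of the samples on 16974 genes without the 8 described here was cut at 3 sets, a number that was set and not found. The sets do not follow the groups. WT samples 1 and 3 and K187R sample 1 formed one set, WT sample 2 and K187R samples 2 and 3 the next, and WT sample 4 and K187R sample 4 the last. These sets come from the data and are not groups of the study. Sae1 was higher in the first set than in the others, at 8592 to 9329 normalized counts in the first set, 6965 to 7306 in the second and 6933 to 7602 in the last. Pias3 was at 1636 and 1899 in the last set and at 1178 to 1546 in the other samples, and Pias4 was at 2801 and 3253 against 2184 to 2786. Within the sets, K187R was above WT in all 3 for Sumo3 alone (0.07, 0.08 and 0.32 on the log2 scale), as for 13.9% of all tested genes. It was below WT in all 3 for 0 of the 8, against 9.42% of all tested genes, since the difference of the other 7 genes changed sign between sets.

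Markers of growth and of other cells moved with the last set. The summed normalized counts of 10 proliferation genes, among them Top2a and Mki67, were 61723 in WT sample 4 and 65942 in K187R sample 4, against 90301 to 131498 in the other 6. The 4 myeloid markers Lyz2, Itgam, Cd14 and Adgre1 summed to 56767 and 60013 against 18147 to 44697, nearly all of it from Lyz2, and Cd8a and Cd8b1 together to 1025 and 1141 against 387 to 556. The B cell markers Ms4a1 and Cd79a summed to 102 and 137 against 362 to 641. The erythroid markers Hbb-bs and Hba-a1 summed to 37.5 and 53.3 against 0 to 4.21, and the NK cell markers Klrb1c and Ncr1 to no more than 30.5 in any sample. The part of these differences in the values of Sumo2, Uba2, Pias3 and Pias4 was not tested, and in bulk RNA fewer cells of a type and less RNA per cell cannot be told apart.

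By group the ranges of the same marker sums overlapped. They were 18147 to 56767 in WT and 31651 to 60013 in K187R for the myeloid list, 61723 to 131498 and 65942 to 95407 for proliferation, 102 to 560.5 and 137 to 641 for B cells and 403 to 1025 and 387 to 1141 for CD8 T cells. All 6 T cell markers (Cd3e, Cd3d, Cd4, Cd28, Thy1 and Lck) were at 11196 normalized counts or more in every sample. The 4 Th17 markers Il17a, Il17f, Ccr6 and Il23r all had a higher mean with K187R, with a median log2 difference of 0.88 and summed levels of 13166 to 28559 in WT and 21731 to 34030 in K187R. All 4 had an unadjusted p under 0.05 in limma and 0 passed after adjustment. The means of the 4 myeloid markers were also all higher, with a median of 0.46, 0 of them at an unadjusted p under 0.05 and 0 after adjustment. For Cd14 the log2 difference was far less than its error (0.016 with a standard error of 0.362). The part of these differences in the values of the 8 genes was not tested. Il17a and Il17f were at 2087 and 10238 or more in every sample, Ccr6 at 776 or more and Il23r at 57.5 or more. Reads per sample, from 52456804 to 74676721 in WT and from 54260345 to 67827288 in K187R, overlapped as well.

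Genes can be ranked against each other only per kb, and the ranks depend on the length chosen. Per kb of annotated exon, the E1 subunit Sae1 had the highest counted level of the 8 and Pias3 the lowest. The place of Sumo2 is uncertain, since 23.3% of the 75-base words of its CCDS transcript occur in genes elsewhere and it is not known how such reads were counted. The mean level over 8 samples, in normalized counts per kb of the union of annotated exons, was 3020.1 ± 372 (SD) for Sae1, 2000 ± 165 for Sumo2, 1902 ± 178 for Pias2 and 1707 ± 205 for Uba2. It was 945 ± 67.4 for Sumo3, 855 ± 25.2 for Pias1, 696 ± 99.0 for Pias4 and 374 ± 58.9 for Pias3. Of neighbours in this order, Sae1 stood above Sumo2, Uba2 above Sumo3 and Pias4 above Pias3 with no overlap of their 8 values. The other 4 neighbouring pairs overlapped. Within each of the 8 samples, however, Pias2 stood above Uba2 and Sumo3 above Pias1. The order of Sumo2 and Pias2 turned in K187R sample 1, and that of Pias1 and Pias4 in WT sample 4. With the length of the longest annotated transcript, Uba2 (3994) moved to second place behind Sae1 (4183) and overlapped it, while Sumo2 followed at 3303.

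**Figure D4:**
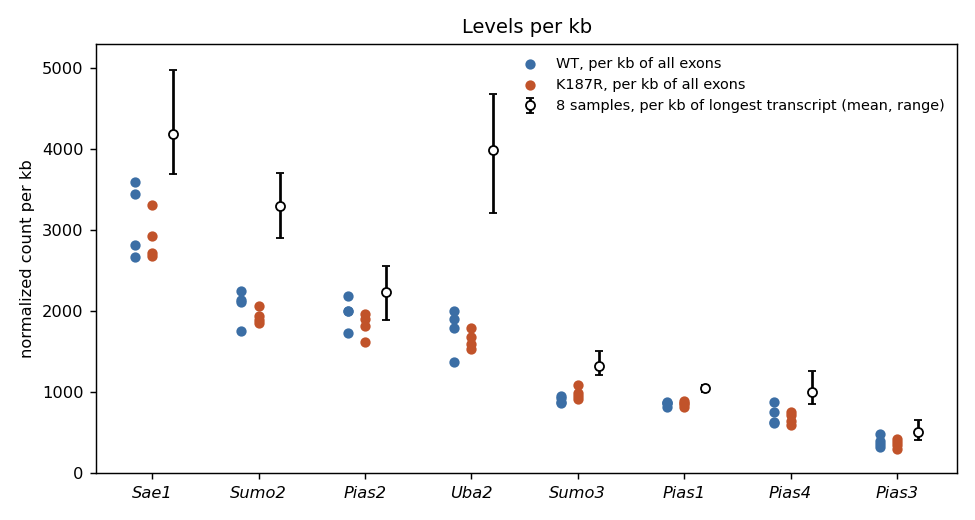
Normalized count per kb (vertical axis, from 0) of the 8 genes in each WT (blue) and K187R (orange) sample over the union of annotated exons, and the mean and range of the 8 samples over the length of the longest annotated transcript (open circles). As counted, Sae1 is highest and Pias3 lowest on both lengths and Uba2 shifts most, from 1707 to 3994, while the place of Sumo2 is uncertain because of reads shared with other genes.

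Genes of the other SUMO steps did not pass the test either. Of the 9 other SUMO ligases, 0 had an adjusted p under 0.05 and 0 an unadjusted p under 0.05 in limma, with 3 higher and 6 lower and a median log2 difference of -0.05, beside -0.0062 over all tested genes. The largest were those of Zfp451, a ligase that favours Sumo2 and Sumo3 chains (-0.20), and Nsmce2, the ligase of the Smc5 and Smc6 complex (-0.18), and both had groups that overlapped. The 9 SUMO proteases, which trim and remove SUMO, also gave 0 at either threshold, with 2 higher and 7 lower and a median of -0.06. Senp5 (-0.11) and Senp2 (-0.10) had the largest differences among them. Lists and genes of these paragraphs are described, with no test of a list as a whole.

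The E1 enzymes of other ubiquitin-like modifiers, the nearest relatives of Sae1 and Uba2 in function, gave 0 of 6 at either threshold in limma, with 2 higher and 4 lower and a median of -0.09 on the log2 scale. Uba7, which activates the interferon-induced modifier ISG15, had the largest difference (0.29, 95% interval -0.03 to 0.61), and its groups overlapped at 3407 to 4299 normalized counts in WT and 3773 to 5932 in K187R. Uba3, a subunit of the E1 for NEDD8, followed at -0.20. The 10 proliferation genes gave 0 at either threshold, with 1 higher and 9 lower and a median of -0.21, and Top2a (-0.34) and Mki67 (-0.27) differed most.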

How the data were processed

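RNA was taken from 8 samples of Th17 cells, grouped by their labels as 4 WT and 4 K187R. Per the paper's methods the authors sequenced poly-A libraries with paired reads of 75 bases, trimmed them with Cutadapt, aligned them to GRCm38 with HiSat2 and counted them with featureCounts on GENCODE M15. The labels name a TruSeq kit and the methods a KAPA kit. Strand and multiple matches in counting are not given in the sources used here. The deposited signal of a gene is its reads divided by 1 size factor per sample with DESeq2. All of them (100%) were whole reads within 0.01, the floor of 3 reads is 2.54 to 3.56 normalized counts, and intervals of reads cover counting error only. No sample column was left unused.

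limma (lmFit, eBayes with trend) was fitted to log2(normalized count + 1) of the 16982 genes whose mean reached 10, with Benjamini-Hochberg adjustment and a threshold of 0.05. A fold on this scale understates changes of low genes. edgeR's quasi-likelihood test and DESeq2 were run on the recovered reads. Scripts were tested on simulated data. Alternatives were other pseudocounts (0.5 and 5), dropping the filter, a minimum mean of 50, median centring, quantile normalization, no trend, the sample set, the replicate number, each sample left out, the longest transcript as length for levels per kb, and, chosen after seeing the data, both samples numbered 4 left out and the longest transcript as length for ratios and shares. Coordinates, exon lengths and shared words of 75 bases come from GENCODE M21. The genes, the lists (other SUMO ligases, SUMO proteases, SUMO-targeted ubiquitin ligases, PML body proteins, other E1 enzymes, proliferation and cell type markers) and the tests were chosen with earlier results of these data known. All 8 genes are named, and of each list the 2 genes with the largest absolute difference beside any that passed. For the 2 genes that varied most over samples the 3 nearest profiles are named. Some results are not reported here. Fits ran in R 4.3.3 (DESeq2 1.42.0, edgeR 4.0.16 and limma 3.58.1), tables and plots in Python 3.11.15 (matplotlib 3.10.9, pandas 2.3.3, scipy 1.17.1 and numpy 2.4.6).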

Additional observations from a re-analysis of the deposited data

How the results depend on the processing

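Under 22 alternatives for each gene, 0 of the 8 genes passed an adjusted p of 0.05 in any, and Sumo2, Sumo3, Sae1, Uba2 and Pias2 kept their direction in all 22. The other filters, the fit without a trend and the replicate block in limma leave the difference itself unchanged, so they could not turn a direction. Within the sample sets only Sumo3 kept its direction in all 3. With the sample set as a factor the difference was nearer 0 for Sae1 (-0.02) and Uba2 (-0.05). Leaving out 1 sample at a time gave log2 differences of -0.16 to -0.04 for Sumo2, 0.07 to 0.15 for Sumo3, -0.17 to -0.03 for Sae1, -0.20 to -0.02 for Uba2, -0.18 to -0.06 for Pias2, -0.015 to 0.028 for Pias1, -0.19 to 0.010 for Pias3 and -0.15 to 0.028 for Pias4. The sign turned without WT sample 4 for Pias3 and Pias4 (0.010 and 0.028), and for Pias1 without WT sample 3 (-0.015), K187R sample 1 (-0.0017) or K187R sample 2 (-0.0091) and with median centring (-0.016). Without both samples numbered 4 the differences were -0.14 for Sumo2, 0.05 for Sumo3, -0.18 for Sae1, -0.19 for Uba2, -0.18 for Pias2, -0.07 for Pias3 and -0.03 for Pias4. The causes were not tested.

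The number of all tested genes called, 0 in limma, became 1 with the sample set as a factor, 27 in DESeq2, 0 to 4 with 1 sample left out (4 without WT sample 4) and 4 without both samples numbered 4. The replicate number as a block left limma's count at 0, with adjusted p-values of 0.488 (Sumo3) to 0.965 (Pias1) for the 8 genes, and gave 0 in edgeR and 175 in DESeq2. Samples of equal number deviated together with correlations of 0.59, 0.66, -0.09 and 0.63 across genes, so number 3 shows no pairing, and the labels do not say what a number shares.

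Per kb of the longest transcript in place of the union of exons, the mean levels were 4183 for Sae1, 3994 for Uba2, 3303 for Sumo2, 2229 for Pias2, 1315 for Sumo3, 1049 for Pias1, 1001 for Pias4 and 499.6 for Pias3. The ratio of Sumo3 to Sumo2 became 0.401, that of Uba2 to Sae1 0.957 and the share of Pias4 20.9%. With 4 samples a group, changes within the printed intervals could not be told from none.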

Other observations

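Transcripts of genes whose proteins bind SUMO were also examined. Of the 3 genes of PML nuclear bodies, where proteins carrying SUMO gather, Sp100 had the largest difference. Its normalized counts were 15342 to 16533 in WT and 16811 to 19280.1 in K187R, so that the groups did not overlap, as for 1.47% of all tested genes. The log2 difference was 0.17 with a 95% interval of 0.02 to 0.32, and it did not pass after adjustment (limma adjusted p = 0.921). Pml, the scaffold of these bodies, followed at 0.06, its groups overlapped, and all 3 genes were higher with a median of 0.06 and 0 called. Rnf4 (-0.05) and Rnf111 (-0.03), ubiquitin ligases that bind SUMO chains, were both lower with 0 called in limma and 0 at an unadjusted p under 0.05. No sample stood apart from the other 3 of its group by Dixon's criterion in the 28 sets of 4 values examined, where chance alone would give about 1.4.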
